A study of Mus musculus with 14 samples.

Results

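The genes described here build ribosomes in the nucleolus: 8 genes of RNA polymerase I (Pol I) transcription and 41 genes of ribosomal RNA (rRNA) processing and ribosome assembly. A list of 50 gene symbols was matched to the gene symbols of both deposited tables, and 49 of the 50 were found among the 45706 genes listed. Utp4 was not found under that symbol. The 49 members were sorted into Pol I transcription (8), nucleolar organisers and helicases (4), box C/D and H/ACA small nucleolar ribonucleoproteins, or snoRNPs (9), the transcription-linked t-UTP proteins (4), the small subunit processome and 40S maturation (11), and large subunit assembly (13).

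RNA sequencing was done on 14 libraries of mouse blood-forming cells in which Prmt5, the gene of an arginine methyltransferase, was deleted or kept. LK KO cells (3 libraries) were a sorted progenitor population from Prmt5 fl/fl mice with Mx1-cre, and LK WT cells (3 libraries) came from Prmt5 fl/fl mice. Both were taken 7 days after poly(I:C), which switches Mx1-cre on through interferon. Ter119pos KO and Ter119neg KO cells (2 libraries each) were sorted from E14.5 fetal liver of Prmt5 fl/fl mice with Vav-cre, which acts in blood cells, and Ter119pos WT and Ter119neg WT cells (2 libraries each) from Prmt5 fl/fl mice. Ter119 is a surface antigen of maturing erythroid cells. Mice 1 and 2 gave both KO fractions and mouse 4 both WT libraries B, while the WT libraries A came from mouse 5 (Ter119pos) and mouse 3 (Ter119neg). No label says whether the LK libraries were separate animals, so their p-values measure the spread between these libraries, which may be technical.

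Pol I copies the rRNA genes into 1 long precursor. Ubtf and the SL1 complex, of which Taf1d is a subunit, mark the rRNA gene promoter, and Rrn3 brings Pol I to it. The precursor is modified by snoRNPs, cut within the small subunit processome and then joined by ribosomal proteins on its way to the small and large subunits. Erythroid precursors make many ribosomes while they divide and lose nucleolus and nucleus as they mature. The values below are levels of the members' own mRNA, and rRNA synthesis itself was not measured.

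Promoter sequences are shown for 6 members on which the results turn: Rrn3, Mybbp1a, Utp20, Ddx21 and Tsr1, which stood higher in LK KO than in LK WT cells, and Polr1c, which among members differed most between KO and WT in fetal liver. Each runs 5′ to 3′ from 250 bases before to 50 bases after an annotated start (RefSeq, GRCm38.p6), and capitals mark CACGTG, the E-box bound by Myc, Max and the Mxd proteins. The windows lie at chr16:13780449-13780748 (plus strand) for Rrn3, chr11:72441077-72441376 (plus strand) for Mybbp1a, chr10:88826765-88827064 (minus strand) for Utp20, chr10:62602249-62602548 (minus strand) for Ddx21, chr11:74897830-74898129 (plus strand) for Tsr1 and chr17:46247996-46248295 (minus strand) for Polr1c.
Rrn3: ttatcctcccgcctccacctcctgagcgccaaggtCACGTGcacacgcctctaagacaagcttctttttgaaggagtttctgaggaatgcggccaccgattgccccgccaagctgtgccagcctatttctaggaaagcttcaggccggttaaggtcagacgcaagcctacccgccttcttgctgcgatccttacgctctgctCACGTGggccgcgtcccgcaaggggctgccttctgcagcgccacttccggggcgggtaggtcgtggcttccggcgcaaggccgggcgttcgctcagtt
Mybbp1a: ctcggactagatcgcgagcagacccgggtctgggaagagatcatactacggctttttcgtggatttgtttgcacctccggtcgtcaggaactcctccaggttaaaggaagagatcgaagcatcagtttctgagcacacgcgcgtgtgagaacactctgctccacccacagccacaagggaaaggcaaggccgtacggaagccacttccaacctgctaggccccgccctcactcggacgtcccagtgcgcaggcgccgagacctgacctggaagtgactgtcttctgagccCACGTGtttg
Utp20: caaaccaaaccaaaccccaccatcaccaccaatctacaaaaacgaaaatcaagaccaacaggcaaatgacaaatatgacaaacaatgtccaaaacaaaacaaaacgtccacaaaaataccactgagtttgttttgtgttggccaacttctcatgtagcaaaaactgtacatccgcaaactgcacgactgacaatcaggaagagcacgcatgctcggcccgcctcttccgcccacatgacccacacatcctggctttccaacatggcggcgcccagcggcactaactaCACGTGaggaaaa
Ddx21: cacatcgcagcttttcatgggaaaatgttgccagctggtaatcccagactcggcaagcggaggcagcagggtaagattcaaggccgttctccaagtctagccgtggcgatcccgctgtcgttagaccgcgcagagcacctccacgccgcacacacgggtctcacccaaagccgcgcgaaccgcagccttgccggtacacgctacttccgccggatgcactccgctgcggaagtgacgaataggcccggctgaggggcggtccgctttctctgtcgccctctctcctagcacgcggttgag
Tsr1: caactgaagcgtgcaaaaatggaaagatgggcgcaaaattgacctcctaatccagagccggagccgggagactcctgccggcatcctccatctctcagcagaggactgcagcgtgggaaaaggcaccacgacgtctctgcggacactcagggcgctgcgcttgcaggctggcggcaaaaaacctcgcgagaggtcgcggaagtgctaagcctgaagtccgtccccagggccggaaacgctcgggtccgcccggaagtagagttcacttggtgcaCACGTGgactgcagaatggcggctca
Polr1c: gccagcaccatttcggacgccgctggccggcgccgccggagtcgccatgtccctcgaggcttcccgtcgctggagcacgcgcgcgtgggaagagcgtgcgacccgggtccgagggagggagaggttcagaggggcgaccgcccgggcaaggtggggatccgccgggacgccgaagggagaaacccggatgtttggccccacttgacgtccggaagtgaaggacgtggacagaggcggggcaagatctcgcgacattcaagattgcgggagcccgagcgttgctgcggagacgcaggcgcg

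The letters CACGTG read the same on both strands and were searched in every window. Rrn3 held 2 copies, both before its start, and Mybbp1a, Utp20 and Tsr1 held 1 each within the 50 bases after theirs. Ddx21 and Polr1c held none in this window. Of the 41 members with a window, 8 held the motif in at least 1 window (19.5%), the others being Nop2, Pes1, Wdr43 and Ltv1. Of the 14 members with a window that rose in LK KO cells in the replicate-block fit described below, 4 held it and 10 did not, among them Ddx21, Taf1d, Polr1e and Polr1b. It was found in 7.15% of all 32851 windows and for 8.09% of all 27025 genes. A match is a description of letters, not of a bound site. Npm1, Fbl, Bop1, Rrp12, Tcof1, Gnl3l, Sbds and Eif6 had no entry.

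Total counts were 19514550 to 30976961 per LK library, 19880052 to 29652947 per Ter119pos library and 22381074 to 27620734 per Ter119neg library. Levels are in CPM (library-scaled counts) after TMM normalisation, made separately for LK and fetal libraries, so an LK level and a fetal level are not tested against each other. Prmt5, the targeted gene, was at 11.5 ± 0.903 CPM in LK KO against 81.0 ± 25.5 CPM in LK WT cells (SD, n = 3 each), at 4.28 ± 0.903 against 15.7 ± 2.79 CPM in Ter119pos cells and at 4.38 ± 0.179 against 52.0 ± 0.347 CPM in Ter119neg cells (SD, n = 2 each), with each KO library below each WT library. Erythroid markers summed to 336300 to 440200 CPM in Ter119pos KO, 305000 to 340100 in Ter119pos WT, 920 to 1536 in Ter119neg KO and 633 to 706 in Ter119neg WT libraries. The LK libraries with the letter B stood apart: 18S rRNA took 23.4% of counts in LK KO B and 18% in LK WT B, and at most 0.18% in the other LK libraries. In fetal libraries the small RNAs Rn7s1, Rn7s2 and Rn7sk took 31.1 to 32.2% of counts in Ter119pos KO, 5.72 to 5.90% in Ter119pos WT, 23.9 to 26.9% in Ter119neg KO and 14.3 to 20.2% in Ter119neg WT libraries.

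All 49 members were measured in every group, and all passed the filter on low counts in both tables. The median member level was 107 CPM in LK KO, 83.4 in LK WT, 25.7 in Ter119pos KO, 23.4 in Ter119pos WT, 58.0 in Ter119neg KO and 58.1 in Ter119neg WT cells. Per kilobase of the longest annotated transcript, Npm1, the nucleolar chaperone nucleophosmin, had the highest level in all 6 groups, at 777 CPM per kb in LK KO, 575 in LK WT, 211 in Ter119pos KO, 165 in Ter119pos WT, 345 in Ter119neg KO and 393 in Ter119neg WT cells. The member next in that order changed with the group. It was Ncl in LK KO (158), Nop10 in LK WT (187), Nhp2 in Ter119pos KO (49.4), Ubtf in Ter119pos WT (34.9), Mybbp1a in Ter119neg KO (78.9) and Mybbp1a in Ter119neg WT cells (66.9 CPM per kb). The lowest was Noc3l in LK KO (8.63), Taf1d in LK WT (5.92), Gar1 in Ter119pos KO (1.42), Polr1e in Ter119pos WT (1.62), Noc3l in Ter119neg KO (5.16) and Taf1d in Ter119neg WT cells (4.69 CPM per kb). This order depends on the length used, which was 8202 bases for Ncl and 1109 bases for Nop10. Before division by length, Ncl had 873 and Nop10 208 CPM in LK WT cells. Nop10 ranged from 64.6 to 453 CPM between LK WT libraries, with the highest value in library B.

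**Figure D1:**
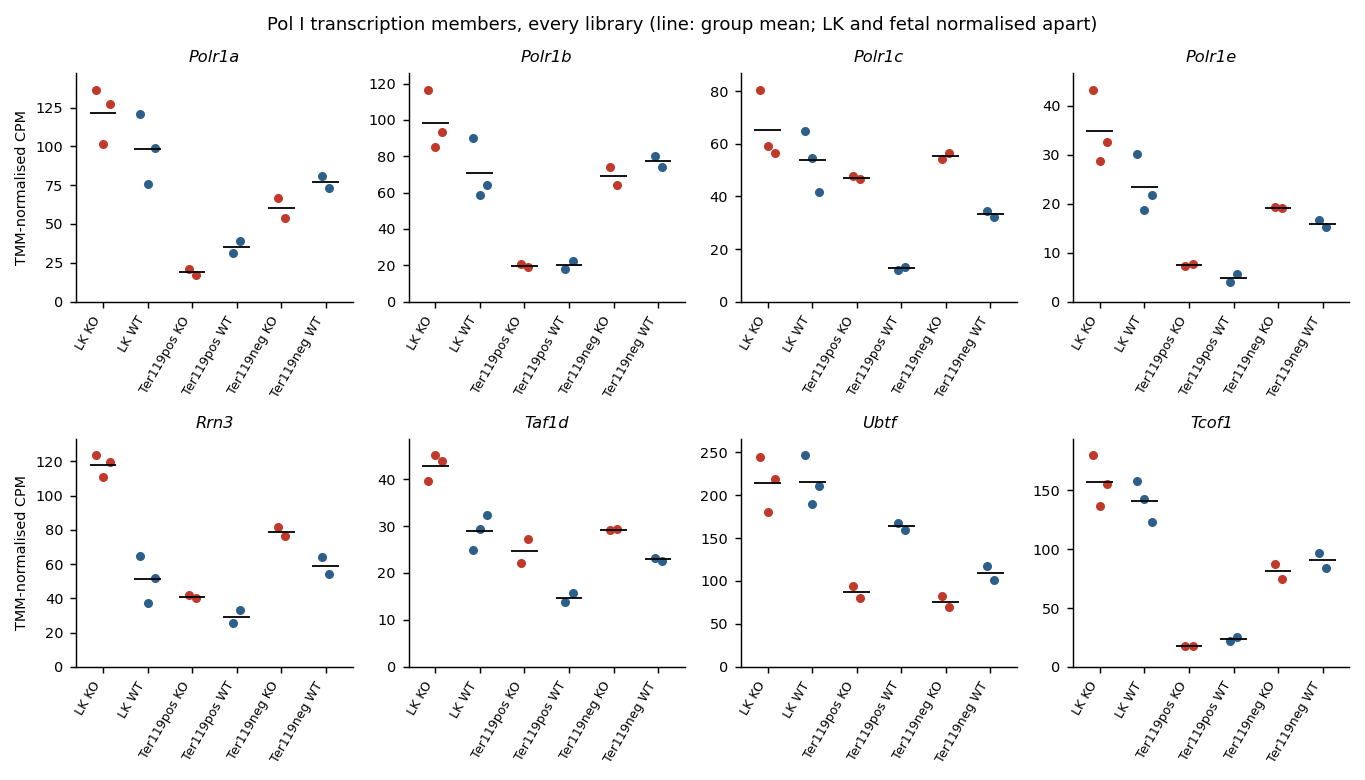
Level of each of the 8 Pol I transcription members in every library, in TMM-normalised CPM (linear axis from 0), for LK, Ter119pos and Ter119neg cells. Points are libraries (red KO, blue WT) and lines are group means; Rrn3 lay at 111 to 123 CPM in the 3 LK KO libraries, above the 37.5 to 64.7 CPM of the 3 LK WT libraries, and Polr1c at 46.5 to 47.6 CPM in Ter119pos KO, above 12.1 to 13.3 CPM in Ter119pos WT.

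The first comparison asked how loss of Prmt5 in sorted progenitors touched the ribosome-building genes. In LK cells, most members stood higher in KO than in WT libraries by small amounts: the median log2 fold change was 0.30, against -0.087 for all 13771 genes tested, with 37 members above 0 and 12 below. None of the 49 passed an adjusted p of 0.05 by the edgeR quasi-likelihood test, where 1.82% of all genes did (1.15% higher, 0.661% lower). At an unadjusted p under 0.05 there were 6 of the 49 members, against 2404 of all 13771 genes. DESeq2 called 3 members higher (Rrn3, Utp20, Mybbp1a) and 0 lower, against 539 higher and 535 lower of 13716 genes. KO and WT libraries of the same letter deviated together, and with the letter as a replicate block 15 members rose and 0 fell, a share of 30.6% against 22.7% of all genes (9.90% higher, 12.8% lower). The median member change was then 0.31, against -0.061 for all genes.

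Rrn3, the factor that joins Pol I to the rRNA gene promoter, showed the largest difference among members in LK cells. Its level was 123, 111 and 119 CPM in LK KO libraries A, B and C, against 64.7, 37.5 and 51.8 CPM in LK WT libraries A, B and C. Every KO library lay above every WT library. The log2 fold change was 1.20 ± 0.25 (SE, n = 3 each) with an edgeR adjusted p of 0.0639, and 1.23 ± 0.16 with an adjusted p of 0.00395 under the replicate block. Without both B libraries it was 1.10 (edgeR adjusted p = 0.0993), and without both C libraries 1.22 (adjusted p = 0.299).

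The other Pol I members were closer to WT in LK cells. Taf1d, the SL1 subunit, had 39.7, 45.0 and 43.9 CPM in LK KO libraries A to C, against 24.9, 29.4 and 32.4 CPM in LK WT libraries A to C. These groups did not overlap. Polr1e, a Pol I-specific subunit, had 43.2, 28.7 and 32.6 CPM in KO against 30.1, 18.6 and 21.7 CPM in WT, and Polr1b, the subunit that forms the active site with Polr1a, had 116, 84.9 and 93.3 CPM in KO against 90.2, 58.5 and 64.0 CPM in WT. In both, KO exceeded WT within each letter although the groups overlapped. Taf1d, Polr1e and Polr1b had log2 fold changes of 0.57, 0.57 and 0.47, with edgeR adjusted p of 0.211, 0.342 and 0.391 and, under the replicate block, 0.0264, 0.0257 and 0.0349.

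Polr1a, the largest subunit, had 136, 101 and 127 CPM in LK KO against 121, 75.5 and 99.1 CPM in LK WT libraries A to C. Polr1c, a subunit that Pol I shares with Pol III, had 80.4, 59.4 and 56.5 CPM in KO against 65.0, 54.6 and 41.8 CPM in WT. Neither passed the edgeR test with or without the block (adjusted p of 0.122 and 0.153 with it). Tcof1, the nucleolar protein treacle, was at 180, 137 and 155 CPM in KO and 158, 143 and 123 CPM in WT, and Ubtf, the architectural factor that coats active rRNA genes, at 244, 180 and 219 CPM in KO and 246, 190 and 211 CPM in WT. For Ubtf the log2 fold change was -0.0094 ± 0.24 (SE, n = 3 each), and the groups lay on top of each other.

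All 4 nucleolar organisers had positive values in LK cells (median log2 fold change 0.63). Mybbp1a, a Myb-binding protein of the nucleolus, had 788, 619 and 668 CPM in LK KO against 486, 328 and 322 CPM in LK WT libraries A to C. Ddx21, a helicase that links Pol I transcription to processing, had 390, 366 and 454 CPM in KO against 267, 198 and 287 CPM in WT. Both sets of libraries were separate. Mybbp1a had a log2 fold change of 0.87 ± 0.28 and Ddx21 of 0.69 ± 0.26 (SE, n = 3 each), with edgeR adjusted p of 0.179 and 0.229, and 0.0116 and 0.0196 under the block. Ncl, nucleolin, had 1138, 1076 and 1670 CPM in KO against 725, 672 and 1224 CPM in WT (0.57, adjusted p = 0.470 without and 0.0452 with the block, edgeR). Npm1 had 1398, 954 and 1453 CPM in KO and 979, 757 and 1083 CPM in WT, and did not pass with the block either (edgeR adjusted p = 0.108).

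In the small subunit class, Utp20, a very large scaffold of the processome, had 154, 114 and 170 CPM in LK KO against 88.8, 51.2 and 86.7 CPM in LK WT libraries A to C. Its libraries did not overlap, and its log2 fold change of 0.95 ± 0.29 (SE, n = 3 each) had an edgeR adjusted p of 0.160, or 0.00549 with the block. Rrp12, an export factor of pre-ribosomes, had 107, 77.6 and 87.2 CPM in KO against 77.2, 47.0 and 44.6 CPM in WT. With the block 4 of 11 members of this class rose (Utp20, Rrp12, Tsr1, Ddx10) and 3 of the 4 t-UTP proteins (Heatr1, Wdr75, Utp15). These shares were 36.4% and 75%, against 9.90% of all genes that rose in the same fit. Wdr43, the remaining t-UTP member, had a log2 fold change of 0.40 (edgeR adjusted p = 0.0587 with the block).

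The snoRNP class and large subunit assembly were nearer 0. None of 9 snoRNP members and 1 of 13 large subunit members, Noc2l, rose under the block in LK cells. With 9.90% of all genes higher in that fit, the large subunit share of 7.69% was near that of all genes. Class medians were 0.062 and 0.19 without it. Fbl, the methyltransferase of box C/D snoRNPs, had 320, 235 and 229 CPM in LK KO against 272, 297 and 184 CPM in LK WT libraries A to C. Dkc1, the pseudouridine synthase of H/ACA snoRNPs, had 131, 106 and 150 CPM in KO against 116, 82.6 and 146 CPM in WT. Both overlapped widely.

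Members below 0 in LK cells included Nop56, a box C/D core protein, at 202, 176 and 195 CPM in LK KO against 299, 232 and 217 CPM in LK WT libraries A to C, and Noc4l, a processome protein, at 49.9, 47.5 and 44.7 CPM in KO against 68.0, 71.4 and 47.6 CPM in WT. Neither passed the edgeR test (adjusted p of 0.450 and 0.416). Nop10, a short H/ACA core protein, had 109, 229 and 74.8 CPM in KO against 106, 453 and 64.6 CPM in WT, and Emg1, an rRNA methyltransferase, 109, 130 and 85.7 CPM in KO against 120, 191 and 83.7 CPM in WT. For Nop10 and Emg1 the B library was the highest of its group in both genotypes, and it alone put the mean of KO below that of WT for Nop10.

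Longer genes had higher values in LK KO than in WT: Spearman's rho between longest transcript length and log2 fold change was 0.29 over 13704 genes and 0.48 over the 49 members, all from the same 6 libraries. With the length trend removed 1 member was called (Rrn3, 1.22, edgeR adjusted p = 0.0278), and 23 rose with the trend removed and the block together. Of all 13771 genes 274 rose and 200 fell with the trend removed, and 1716 rose and 2031 fell with the block added. Granulocyte markers summed to 2316 to 8764 CPM in LK KO against 6274 to 37340 CPM in LK WT libraries, and 0 of 9 were called (median log2 fold change -2.2). LK progenitor markers summed to 6501 to 9353 CPM in LK KO against 11620 to 16960 CPM in LK WT libraries, but 0 of 6 were called and their median log2 fold change was 0.36, opposite in sign to the sum. Their part in the member values was not tested. In such bulk samples fewer cells of a type and less RNA per cell cannot be told apart.

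**Figure D2:**
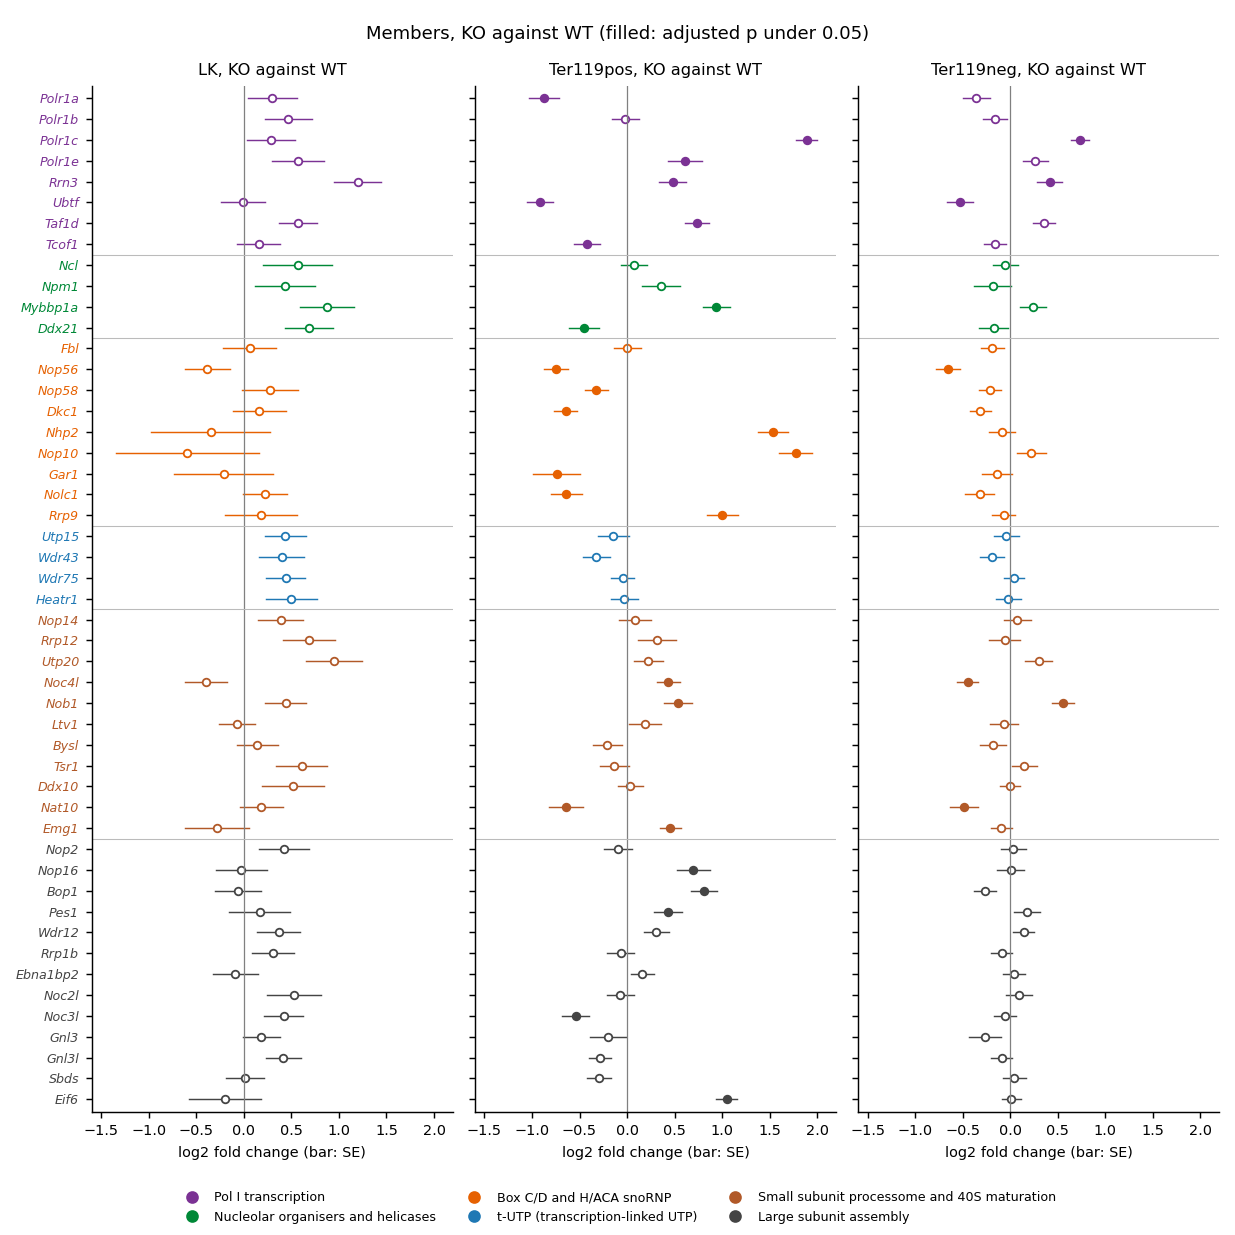
Log2 fold change of KO against WT (points, with SE bars) for the 49 members in LK, Ter119pos and Ter119neg cells, coloured and grouped by class. Filled points had an edgeR adjusted p under 0.05: 0 members in LK, 26 in Ter119pos (15 higher, 11 lower) and 7 in Ter119neg cells (3 higher, 4 lower).

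The second comparison took the Ter119pos fraction, the maturing erythroid cells. In Ter119pos KO cells 15 members rose and 11 fell relative to Ter119pos WT, so 53.1% of members were called, close to the 54.2% of all 15566 genes (24.8% higher, 29.3% lower). The member median log2 fold change was 0.0035, against -0.042 for all genes. The members thus moved in both directions, and both directions were found within the same complexes. Of the 8 Pol I members 4 rose and 3 fell, and of the 41 processing members 11 rose and 8 fell. The 4 t-UTP proteins all missed the threshold (median -0.097).

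Polr1c showed the largest difference of all members. It had 47.6 and 46.5 CPM in Ter119pos KO libraries A and B, against 12.1 and 13.3 CPM in Ter119pos WT libraries A and B. The KO libraries thus stood well above the WT libraries, with a log2 fold change of 1.89 ± 0.11 (SE, n = 2 each, edgeR adjusted p = 1.2e-07). Taf1d had 22.1 and 27.2 CPM in KO against 13.8 and 15.7 CPM in WT (0.74 ± 0.13, adjusted p = 0.000399). Rrn3 had 41.7 and 40.1 CPM in KO against 25.4 and 33.4 CPM in WT, and Polr1e 7.21 and 7.59 CPM in KO against 3.97 and 5.71 CPM in WT. Rrn3 and Polr1e rose by 0.48 and 0.61 on the log2 scale (edgeR adjusted p of 0.0122 and 0.0130). Both calls were lost without Ter119pos WT A (Rrn3 also without KO A, Polr1e also without KO B).

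Ubtf, in contrast, had 93.7 and 80.1 CPM in Ter119pos KO against 168 and 160 CPM in Ter119pos WT libraries A and B, and Polr1a had 21.2 and 17.1 CPM in KO against 31.3 and 39.1 CPM in WT. In both genes each KO library lay below each WT library. Ubtf fell by 0.92 ± 0.14 and Polr1a by 0.87 ± 0.16 on the log2 scale (SE, n = 2 each, edgeR adjusted p of 0.000109 and 0.000503). Tcof1, at 17.4 and 17.7 CPM in KO against 21.7 and 25.2 CPM in WT, fell by 0.42 (adjusted p = 0.0208), a call lost without Ter119pos KO A, KO B or WT B. It was also lost with scaling that leaves out globin, rRNA and mitochondrial genes (-0.31), with the length trend removed (-0.24) and in a fit of the Ter119pos libraries alone (-0.24, edgeR adjusted p of 0.0862, 0.166 and 0.173). Polr1b was at 20.9 and 18.8 CPM in KO against 17.7 and 22.6 CPM in WT and did not differ beyond its spread (-0.020 ± 0.14). The largest Pol I subunit, Polr1a, and its partner Polr1b thus differed in their calls, a difference that was not itself tested.

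Among snoRNP proteins, the H/ACA core was split. Nop10 had 46.6 and 60.1 CPM in Ter119pos KO against 12.9 and 18.2 CPM in Ter119pos WT libraries A and B, and Nhp2, its partner in the core, had 50.2 and 52.8 CPM in KO against 15.0 and 20.5 CPM in WT. The libraries were far apart in both, with log2 fold changes of 1.77 ± 0.17 and 1.53 ± 0.16 (SE, n = 2 each, edgeR adjusted p of 3.16e-06 and 4.3e-06). Dkc1, the enzyme of the same particle, had 37.1 and 43.1 CPM in KO against 61.8 and 63.7 CPM in WT and fell by 0.65 (adjusted p = 0.000565). Gar1, the last H/ACA core protein, fell by 0.74 at low levels, 1.89 and 1.73 CPM in KO against 2.77 and 3.30 CPM in WT (adjusted p = 0.0232, lost without Ter119pos KO A, KO B or WT B, by DESeq2, with scaling that leaves out globin, rRNA and mitochondrial genes and in the Ter119pos fit alone).

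Box C/D proteins had another pattern. Nop56 had 68.7 and 66.1 CPM in Ter119pos KO against 102 and 124 CPM in Ter119pos WT libraries A and B, with no overlap, and fell by 0.75 ± 0.13 (SE, n = 2 each, edgeR adjusted p = 0.00028). Its partner Nop58 fell by 0.32 (adjusted p = 0.0379), a call that 7 of the 11 alternative settings did not make. Fbl had 18.8 and 21.5 CPM in KO and 18.1 and 22.0 CPM in WT, a log2 difference of 0.0035 ± 0.15. Rrp9, a protein of the U3 snoRNP, rose by 1.00 ± 0.17, with libraries at 11.2 and 10.4 CPM in KO against 4.99 and 5.83 CPM in WT (adjusted p = 0.000247). Nolc1, a chaperone of both kinds of snoRNP, had 25.8 and 26.6 CPM in KO against 34.0 and 47.3 CPM in WT and fell by 0.64 (adjusted p = 0.0054, lost without Ter119pos WT B).

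In large subunit assembly 4 of 13 members rose (Eif6, Bop1, Nop16, Pes1) and 1 fell (Noc3l). Eif6, which keeps the 60S subunit from joining the 40S subunit too early, had 48.1 and 49.6 CPM in Ter119pos KO against 23.0 and 24.2 CPM in Ter119pos WT libraries A and B, a tight separation (1.05 ± 0.11, SE, n = 2 each, edgeR adjusted p = 5.42e-06). Sbds, which works in the release of Eif6, had 20.3 and 25.5 CPM in KO against 28.7 and 27.4 CPM in WT (-0.30, adjusted p = 0.0658) and was called in 2 of the 11. Bop1 and Pes1 of the PeBoW complex rose by 0.81 and 0.43 (adjusted p of 0.000288 and 0.0288), and Wdr12, the third protein of that complex, had 0.31 (adjusted p = 0.0583) and was called in 4 of the 11 alternative settings. The Pes1 call was lost without Ter119pos KO A, KO B or WT A. Noc3l had 9.80 and 9.58 CPM in KO against 13.3 and 14.9 CPM in WT and fell by 0.54 (adjusted p = 0.00624), a call lost in the fit of the Ter119pos libraries alone (-0.36, adjusted p = 0.0715).

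For the small subunit, Nob1, the endonuclease that cuts the 3′ end of 18S rRNA, Emg1 and Noc4l rose by 0.53, 0.46 and 0.43 in Ter119pos KO cells, and Nat10, an rRNA acetyltransferase, fell by 0.65 (edgeR adjusted p of 0.00832, 0.00423, 0.00981 and 0.00844). Without Ter119pos WT A, Nob1 and Noc4l were no longer called, and without Ter119pos KO B neither Nob1 nor Nat10 was called, nor Nat10 without WT B. Noc4l was also lost with the length trend removed and Nat10 in the Ter119pos fit alone. Of the organisers, Mybbp1a had 101 and 91.5 CPM in KO against 45.6 and 55.1 CPM in WT and rose by 0.94 ± 0.14 (SE, n = 2 each, adjusted p = 0.00012). Ddx21, at 53.3 and 52.5 CPM in KO against 63.2 and 81.5 CPM in WT, fell by 0.45 (adjusted p = 0.0268, lost without Ter119pos KO A, KO B or WT B and in the same 3 other settings as Tcof1). Ncl, at 132 and 134 CPM in KO against 116 and 138 CPM in WT, and Npm1, at 290 and 398 CPM in KO against 220 and 318 CPM in WT, overlapped between genotypes. Npm1 was called in 3 of the 11 alternative settings and Ncl in 1.

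Cytosolic ribosomal protein genes, which are not members, moved together in this fraction: 81 of 82 rose and 0 fell, with a median log2 fold change of 2.01. The member median in the same fit was 0.0035. Of all counts, ribosomal protein genes took 3.827 to 4.024% in Ter119pos KO against 1.701 to 2.087% in Ter119pos WT libraries. The size of their rise thus depended on the scaling. Shorter genes had higher values in Ter119pos KO than in WT, with a Spearman rho between length and log2 fold change of -0.21 over 15489 genes and -0.39 over the 49 members, all from the same libraries. With the length trend removed 17 members were higher and 9 lower. Proliferation markers summed to 2638 to 2642 CPM in Ter119pos KO against 11700 to 13290 CPM in Ter119pos WT libraries. The members made up 0.0807 to 0.0898% of all counts in Ter119pos KO against 0.130 to 0.171% in Ter119pos WT libraries, while their TMM-scaled levels summed to 1863 to 1978 against 1643 to 2003 CPM. How the small RNA counts, length and proliferation bear on single members was not tested.

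In the Ter119neg fraction few members differed. Of the 49, 3 rose and 4 fell in KO relative to WT cells, 14.3% against 19.1% of all 15566 genes (9.57% higher, 9.55% lower), with a member median of -0.059 against 0.0067 for all genes. Polr1c again had the largest value, at 54.3 and 56.7 CPM in Ter119neg KO against 34.6 and 32.2 CPM in Ter119neg WT libraries A and B. The libraries were separate, and it rose by 0.73 ± 0.097 (SE, n = 2 each, edgeR adjusted p = 0.000336). Nop56 had 109 and 104 CPM in KO against 164 and 171 CPM in WT and fell by 0.65 ± 0.12 (adjusted p = 0.00322). These 2 of the 7 calls held under all 11 alternative settings.

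The other 5 calls were each lost without at least 1 library. Rrn3 had 81.5 and 76.4 CPM in Ter119neg KO against 64.2 and 54.0 CPM in Ter119neg WT libraries A and B (0.42, edgeR adjusted p = 0.0434, lost without any 1 of the 4 libraries, with RLE scaling, by DESeq2 and with scaling that leaves out globin, rRNA and mitochondrial genes). Nob1 had 31.1 and 31.3 CPM in KO against 21.6 and 20.8 CPM in WT (0.56, adjusted p = 0.00619, lost without KO B, WT A or WT B). Their KO libraries lay above their WT libraries. Ubtf, at 82.2 and 69.4 CPM in KO against 118 and 101 CPM in WT, fell by 0.53 (adjusted p = 0.0168, lost without KO B or WT A). Noc4l, at 31.1 and 30.3 CPM in KO against 43.7 and 40.1 CPM in WT, and Nat10, at 56.9 and 46.8 CPM in KO against 74.7 and 70.3 CPM in WT, fell by 0.45 and 0.48 (adjusted p of 0.0154 and 0.0397). Noc4l was lost without KO A, KO B or WT A, and Nat10 without any 1 of the 4 libraries.

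The rest of the Pol I members did not pass in the fit of all fetal libraries in Ter119neg cells. Taf1d, at 29.1 and 29.3 CPM in Ter119neg KO against 23.2 and 22.5 CPM in Ter119neg WT libraries A and B, came closest (0.35 ± 0.12, SE, n = 2 each, edgeR adjusted p = 0.0520). It was called higher under the replicate block, with the length trend removed and in the fit of the Ter119neg libraries alone (adjusted p of 0.0471, 0.0453 and 0.0192). Polr1e had 19.3 and 19 CPM in KO against 16.7 and 15.2 CPM in WT, and Polr1a 66.8 and 53.6 CPM in KO against 80.9 and 73.1 CPM in WT. Both were separate by genotype, Polr1e higher and Polr1a lower in KO, with adjusted p of 0.196 and 0.102, and Polr1a was called without the filter on low counts (-0.39, adjusted p = 0.0272). Polr1b, at 74.0 and 64.0 CPM in KO against 80.3 and 74.1 CPM in WT, and Tcof1, at 87.7 and 74.5 CPM in KO against 97.2 and 84.0 CPM in WT, had log2 fold changes of -0.16 each (edgeR adjusted p of 0.402 and 0.389).

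Of the nucleolar core proteins in Ter119neg cells, Ncl had 367 and 369 CPM in KO against 396 and 366 CPM in WT, and Npm1 had 535 and 593 CPM in KO against 668 and 614 CPM in WT. Fbl had 41.8 and 44.2 CPM in KO against 54.0 and 43.8 CPM in WT, and Dkc1 57.7 and 58.2 CPM in KO against 77.8 and 66.3 CPM in WT. None of these passed the edgeR test, Dkc1 being nearest (-0.31, adjusted p = 0.0746). Dkc1 was called lower with RLE scaling (-0.36), with scaling that leaves out globin, rRNA and mitochondrial genes (-0.35) and without WT B (-0.47, edgeR adjusted p of 0.0453, 0.0481 and 0.0486). Macrophage markers summed to 29.6 to 32.9 CPM in Ter119neg KO against 124 to 132 CPM in Ter119neg WT libraries, and all 9 markers of that list fell. Of erythroid markers 6 of 8 rose and 1 fell (median log2 fold change 1.25), while 4 of 6 LK progenitor, 3 of 4 lymphoid and 3 of 7 proliferation markers fell and none rose. Whether these touched member levels was not tested.

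**Figure D3:**
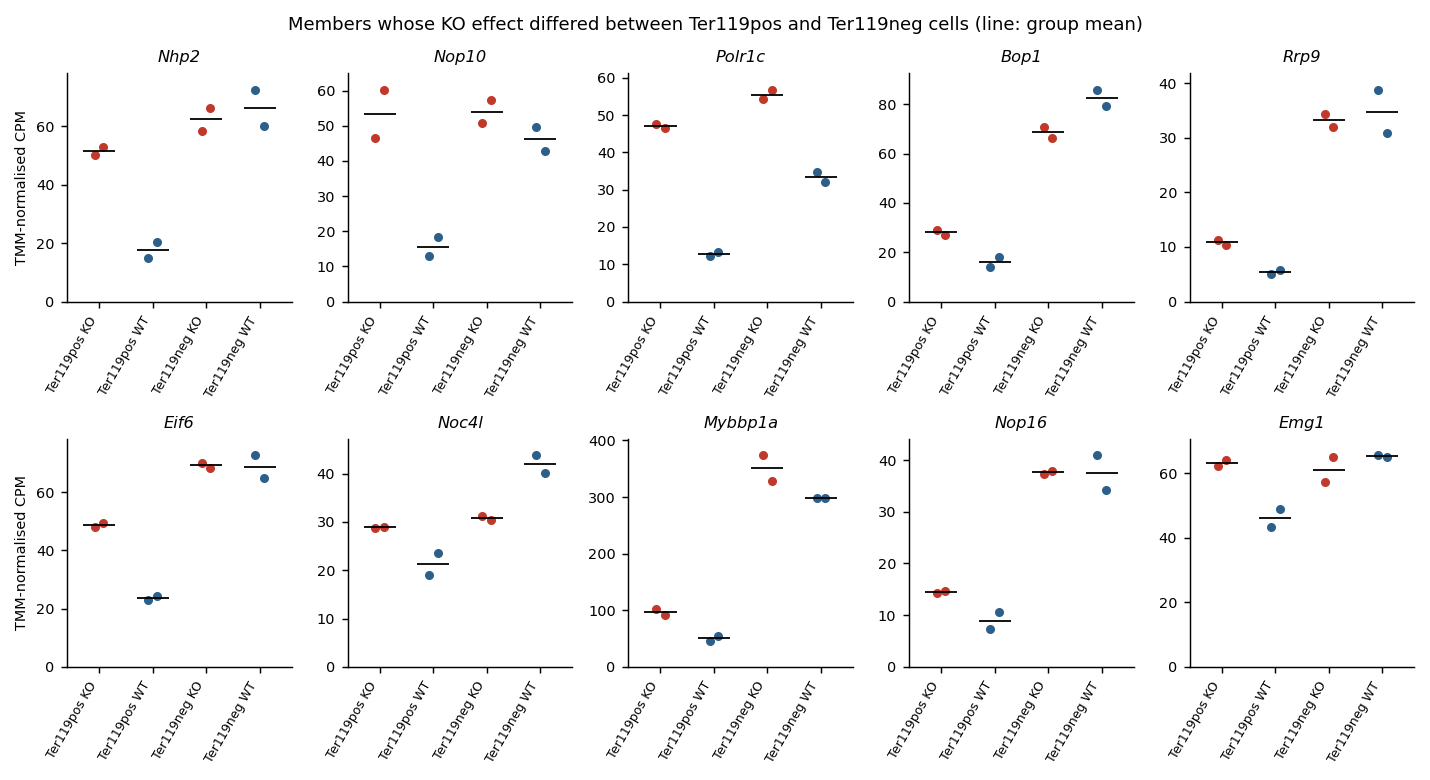
Level in every fetal library, in TMM-normalised CPM (linear axis from 0), of the 10 members whose KO effect differed between Ter119pos and Ter119neg cells. Points are libraries (red KO, blue WT) and lines are group means; Nhp2 and Nop10 were at 46.6 to 60.1 CPM in Ter119pos KO and at 12.9 to 20.5 CPM in Ter119pos WT.

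The third comparison tested whether the KO effect differed between the fractions. On the signed log2 scale it was more positive in Ter119pos than in Ter119neg cells for 10 members and more negative for 0, a share of 20.4% against 41.7% of all genes (19.3% higher, 22.4% lower), with a median difference of 0.025 against -0.0048. Those 10 were Nhp2, Nop10, Polr1c, Bop1, Rrp9, Eif6, Noc4l, Mybbp1a, Nop16 and Emg1. The call held in all alternative settings for 7 of them, and was lost for Mybbp1a and Emg1 without Ter119pos WT A and for Nop16 without Ter119pos KO A, KO B or WT A. With the length trend removed 9 of the 10 were still called. Shorter genes had higher values of this difference, with a Spearman rho between length and value of -0.195 over 15489 genes. Over the 49 members, from the same libraries, rho was -0.37.

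Nhp2 had 50.2 and 52.8 CPM in Ter119pos KO, 15.0 and 20.5 in Ter119pos WT, 58.5 and 66.4 in Ter119neg KO and 72.4 and 60.2 in Ter119neg WT libraries A and B. Only the Ter119pos WT libraries stood low, and the difference of the effects was 1.62 ± 0.21 (SE, edgeR adjusted p = 9.6e-05). Nop10 repeated this form, with 50.8 and 57.2 CPM in Ter119neg KO and 49.6 and 42.9 CPM in Ter119neg WT libraries beside its Ter119pos values above (1.55 ± 0.23, adjusted p = 0.000237). Eif6, with 70.2 and 68.5 CPM in Ter119neg KO and 72.7 and 65.0 CPM in Ter119neg WT, had a difference of 1.04 ± 0.15 (adjusted p = 0.000185). For Polr1c, higher in KO in both fractions, the difference was 1.16 ± 0.15 (adjusted p = 8.54e-05).

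Noc4l was lower in KO than in WT in Ter119neg cells and higher in Ter119pos cells, and its effects differed by 0.88 ± 0.17 (SE, edgeR adjusted p = 0.00117). Bop1 had 29.2 and 27.1 CPM in Ter119pos KO, 14.0 and 18.2 in Ter119pos WT, 71.0 and 66.2 in Ter119neg KO and 85.7 and 79.3 in Ter119neg WT libraries A and B (1.07 ± 0.18, adjusted p = 0.00057). The KO libraries of Bop1 were the higher ones in Ter119pos and the lower ones in Ter119neg cells. On the negative side, Noc3l (-0.48), Gar1 (-0.60) and Sbds (-0.34) missed the threshold (adjusted p of 0.0527, 0.122 and 0.140), while a limma-voom fit with the mouse as a block gave Noc3l -0.50 with an adjusted p of 0.0496. Without Ter119pos WT A 2 members were lower, among them Polr1a (-0.67), and 1 was lower without Ter119pos KO A (Polr1a) or KO B (Sbds). The other Pol I members had edgeR adjusted p between 0.0695 (Polr1a, -0.52) and 0.826 (Rrn3, 0.061). Of these, Taf1d was called with scaling that leaves out globin, rRNA and mitochondrial genes (0.53), with the length trend removed (0.56) and without Ter119pos KO A (0.53, adjusted p of 0.0281, 0.0257 and 0.0356), and Polr1e without Ter119pos WT B (0.64, adjusted p = 0.0398). With the length trend removed Gar1 and Sbds were lower (-0.92 and -0.62, adjusted p of 0.0251 and 0.0127), and Npm1 was higher without the filter or without Ter119pos WT B (0.60 and 0.83, adjusted p of 0.0239 and 0.0350).

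The last comparisons set Ter119pos against Ter119neg cells within each genotype. In WT cells the module was broadly lower in the Ter119pos fraction: 44 members fell and 2 rose, 93.9% against 76.3% of all genes (35.9% higher, 40.4% lower), with a median log2 fold change of -1.39 against -0.19. In KO cells 39 fell and 1 rose, 81.6% against 62.6% of all genes (30.3% higher, 32.3% lower), with a median of -1.25 against -0.12. Class medians ran from -1.57 (nucleolar organisers) to -0.82 (snoRNPs) in KO and from -1.50 (nucleolar organisers) to -1.26 (Pol I transcription) in WT. Summed member levels after TMM scaling were 1863 to 1978 CPM in Ter119pos KO against 3936 to 4022 in Ter119neg KO, and 1643 to 2003 in Ter119pos WT against 3962 to 4404 in Ter119neg WT libraries. As a share of all counts, members took 0.0807 to 0.0898% in Ter119pos KO against 0.536 to 0.654% in Ter119neg KO libraries. In WT the shares were 0.130 to 0.171% in Ter119pos against 0.682 to 0.865% in Ter119neg libraries. Members were lower in Ter119pos by both measures, but the size of the difference depended on the scaling.

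**Figure D4:**
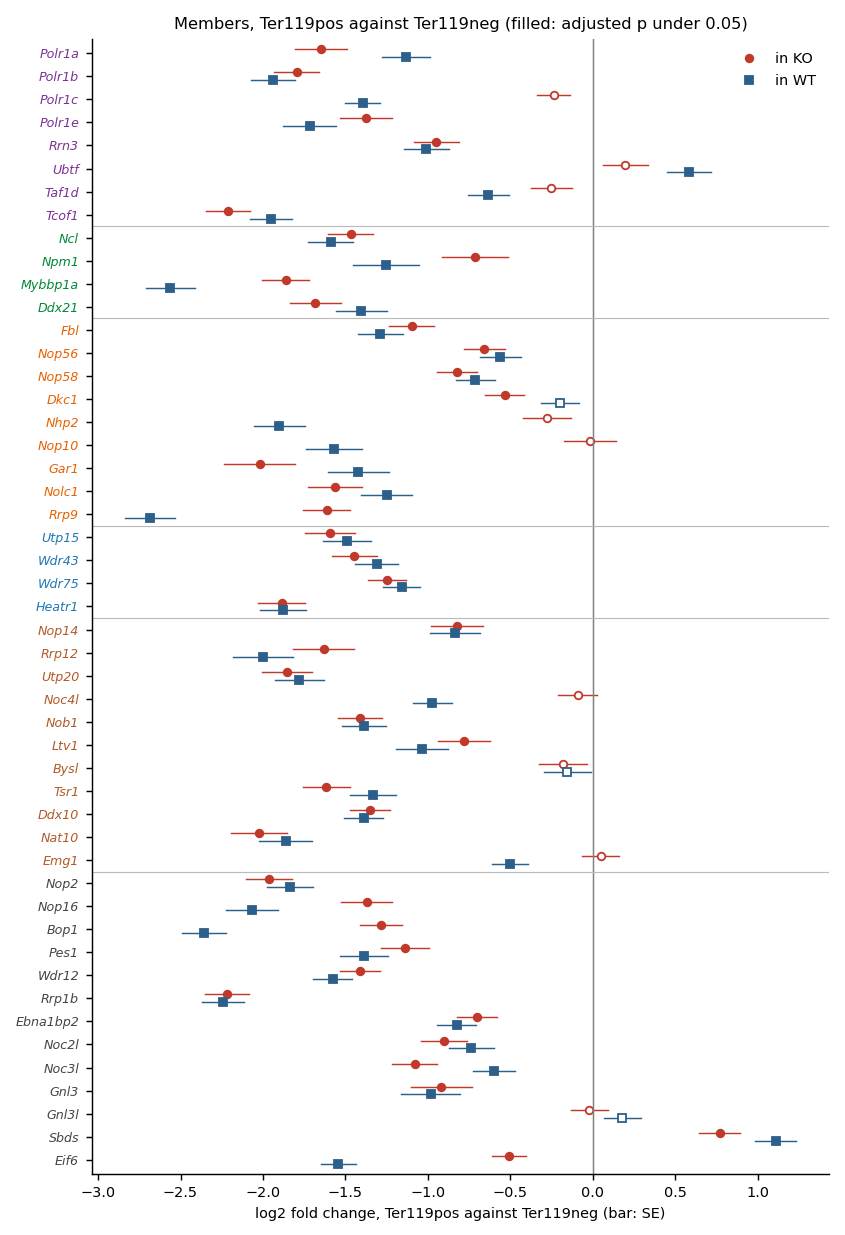
Log2 fold change of Ter119pos against Ter119neg cells (points, with SE bars) for the 49 members, in KO (red circles, upper) and WT (blue squares, lower). Filled points had an edgeR adjusted p under 0.05; most points lie left of 0, Sbds lies right of 0 in both genotypes, and Nop10 lies at -0.019 in KO and -1.57 in WT.

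The steepest falls in WT were of Rrp9, Mybbp1a, Bop1 and Rrp1b. Rrp9 had 4.99 and 5.83 CPM in Ter119pos WT against 38.7 and 30.9 CPM in Ter119neg WT libraries A and B, a log2 fold change of -2.69 ± 0.15 (SE, n = 2 each, edgeR adjusted p = 6.74e-09). Mybbp1a had 45.6 and 55.1 CPM in Ter119pos WT against 298 and 298 CPM in Ter119neg WT (-2.56 ± 0.15, adjusted p = 8.71e-09). Both lay far apart by fraction. Bop1 fell by 2.36 and Rrp1b, a large subunit factor of the nucleolus, by 2.24 (adjusted p of 7.32e-09 and 8.85e-09).

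In KO the steepest falls were of Rrp1b, Tcof1, Nat10 and Gar1, by 2.22, 2.21, 2.03 and 2.02 on the log2 scale (edgeR adjusted p of 2.77e-08, 3.05e-08, 5.98e-07 and 4.43e-06). Rrp1b had 11.4 and 10.3 CPM in Ter119pos KO against 54.9 and 46.3 CPM in Ter119neg KO libraries A and B. Nop2, an rRNA cytosine methyltransferase, had 25.7 and 21.9 CPM in Ter119pos KO against 101 and 84.8 CPM in Ter119neg KO, and Heatr1, a t-UTP scaffold, 37.0 and 33.4 against 133 and 128 CPM. Nop2 had -1.96 in KO and -1.84 in WT, and Heatr1 -1.89 in KO and -1.88 in WT, and for neither did the KO effect pass the test of a difference between fractions.

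Among Pol I genes the fraction difference was uneven. Polr1b fell by 1.80 in KO and 1.94 in WT, Polr1a by 1.65 in KO and 1.13 in WT, Polr1e by 1.37 in KO and 1.72 in WT, and Rrn3 by 0.95 in KO and 1.01 in WT, all with edgeR adjusted p of 6.14e-05 or less. Ubtf went the other way in WT, at 168 and 160 CPM in Ter119pos WT against 118 and 101 CPM in Ter119neg WT libraries A and B (0.58 ± 0.14, SE, n = 2 each, adjusted p = 0.00177, lost without Ter119neg WT B). In KO it was at 93.7 and 80.1 CPM in Ter119pos against 82.2 and 69.4 CPM in Ter119neg libraries and did not pass (0.20, adjusted p = 0.224), though it did with the length trend removed (0.50, adjusted p = 0.00424). Polr1c and Taf1d fell by 1.40 and 0.63 in WT (adjusted p of 1.33e-07 and 0.000499). In KO both missed the threshold, with -0.24 and -0.25 (adjusted p of 0.0539 and 0.0904), although the limma-voom fit with the mouse as a block called Polr1c (-0.24, adjusted p = 0.0388). Without the filter on low counts both were called (-0.33 and -0.34, edgeR adjusted p of 0.0393 and 0.0423), as was Polr1c with the length trend removed (-0.35, adjusted p = 0.00746) and Taf1d without Ter119pos KO B (-0.41, adjusted p = 0.026).

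Sbds was the member that rose in both genotypes, at 20.3 and 25.5 CPM in Ter119pos KO against 13.1 and 13.7 CPM in Ter119neg KO, and at 28.7 and 27.4 CPM in Ter119pos WT against 13.3 and 12.7 CPM in Ter119neg WT libraries A and B. The fractions did not overlap, and the log2 fold changes were 0.77 ± 0.13 and 1.11 ± 0.12 (SE, n = 2 each, edgeR adjusted p of 0.000189 and 3.92e-06). Gnl3l, a nucleolar GTPase, and Bysl, a 40S assembly factor, did not pass the main test between fractions in either genotype, with -0.020 and -0.18 in KO and 0.18 and -0.16 in WT. Gnl3l was called higher in WT with the length trend removed (0.31, edgeR adjusted p = 0.0190). In WT 46 members were lower without the filter on low counts, against 44 in the main fit, and Gnl3l or Bysl was among those added. Emg1, Nop10, Nhp2 and Noc4l fell in WT (-0.50, -1.57, -1.9 and -0.97) and missed the threshold in KO (0.048, -0.019, -0.28 and -0.091), where Emg1 was higher with the length trend removed (0.34, edgeR adjusted p = 0.0232). In KO 42 members were lower without the filter on low counts, against 39 in the main fit. With the length trend removed 4 were higher and 41 lower in KO, so both settings called members beyond the exceptions named. Dkc1 fell in KO (by 0.53) and missed the threshold in WT (-0.20, adjusted p = 0.129), where it was called lower without the filter on low counts (-0.35, adjusted p = 0.0206) and without Ter119neg WT B (-0.39, adjusted p = 0.025).

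Of the most abundant members, Npm1 had 290 and 398 CPM in Ter119pos KO against 535 and 593 CPM in Ter119neg KO, and 220 and 318 CPM in Ter119pos WT against 668 and 614 CPM in Ter119neg WT libraries A and B. It fell by 0.71 in KO (edgeR adjusted p = 0.00729, lost without Ter119neg KO B or Ter119pos KO A) and by 1.25 in WT (adjusted p = 9.74e-05). Ncl fell by 1.47 in KO and 1.59 in WT, and Fbl by 1.10 in KO and 1.29 in WT. Markers of proliferation summed higher in the Ter119pos fraction, at 2638 to 2642 CPM against 1012 to 1027 CPM in KO and at 11700 to 13290 CPM against 1346 to 1370 CPM in WT. The fractions also differed in markers of cell type. In WT, 8 of 8 erythroid markers rose in Ter119pos cells. Of other lists, 6 of 6 LK progenitor, 9 of 9 granulocyte, 7 of 9 macrophage, 5 of 5 hepatocyte and 3 of 4 lymphoid markers fell. In KO, 6 of 6 LK progenitor and 9 of 9 granulocyte markers fell, while 6 of 9 macrophage markers rose and 2 fell. How cell types bear on the member values was not tested.

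**Figure D5:**
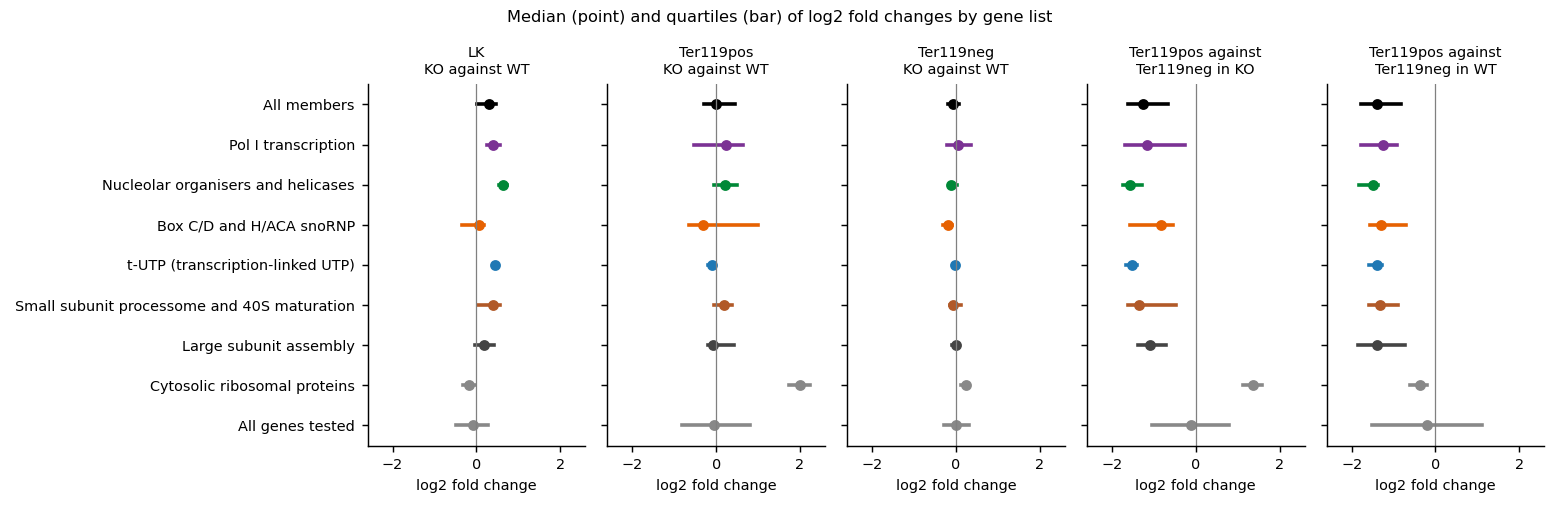
Median (point) and quartiles (bar) of log2 fold changes for all members, the 6 member classes, cytosolic ribosomal protein genes and all genes tested, in 5 comparisons. Member medians lie at -1.25 and -1.39 for Ter119pos against Ter119neg cells in KO and in WT, while ribosomal protein genes lie at 1.37 in KO and -0.38 in WT.

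After TMM scaling, ribosomal protein genes stood higher in the Ter119pos than in the Ter119neg fraction of KO cells, where most members stood lower: 79 of 82 rose and 1 fell in Ter119pos against Ter119neg KO cells (median 1.37), against 0 that rose and 38 that fell in WT (median -0.38). That was 97.6% called in KO and 46.3% in WT, against 62.6% and 76.3% of all genes. As a share of all counts, ribosomal protein genes were lower in the Ter119pos fraction of both genotypes. They took 3.827 to 4.024% in Ter119pos KO against 5.035 to 5.086% in Ter119neg KO libraries. In WT the shares were 1.701 to 2.087% in Ter119pos against 4.776 to 5.893% in Ter119neg libraries. The direction in KO thus depended on the scaling. Spearman's rho between length and log2 fold change over 15489 genes was -0.202 in KO and -0.0275 in WT. Over the 49 members it was -0.353 and 0.0242. How length bears on ribosomal protein genes was not tested. Other genes of the pathway, which are not members, were also read, beside the 76.3% of all genes called in WT (35.9% higher, 40.4% lower). In WT, Ter119pos against Ter119neg, 4 of 49 further large subunit factors rose and 38 fell, 3 of 43 further small subunit factors rose and 31 fell, and 2 of 23 exosome and snoRNP assembly genes rose and 18 fell. Of further Pol I factors 5 of 18 rose and 11 fell. The shares called were 85.7%, 79.1%, 87.0% and 88.9% of these 4 lists. Riok3, a kinase of 40S maturation, had 353 ± 34.9 CPM in Ter119pos WT against 23.1 ± 1.20 CPM in Ter119neg WT cells (SD, n = 2 each), and Ruvbl2, a helicase of snoRNP assembly, had 24.9 ± 2.61 against 98.2 ± 8.30 CPM.

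Genes of the Myc network, whose proteins bind the E-box printed above, were also read. Of these 11 genes, 4 rose and 5 fell in Ter119pos against Ter119neg cells, in KO and in WT alike. That was 81.8% called, against 62.6% (KO) and 76.3% (WT) of all genes. Between KO and WT, 4 rose and 5 fell in Ter119pos cells, 81.8% against 54.2% of all genes. In Ter119neg cells 1 rose and 1 fell (18.2% against 19.1%), and in LK cells 0 rose and 1 fell (9.09% against 1.82%). Myc had 14.2 ± 0.287 CPM in Ter119pos KO against 97.0 ± 1.57 CPM in Ter119neg KO cells, and 10.4 ± 0.893 CPM in Ter119pos WT against 89.3 ± 3.36 CPM in Ter119neg WT cells (SD, n = 2 each). It fell by 2.77 and 3.10 on the log2 scale (edgeR adjusted p of 1.25e-09 and 2.37e-10). Mxd1, a repressor that competes with Myc for Max, had 212 ± 18 against 8.90 ± 1.59 CPM in KO and 332 ± 51.7 against 6.93 ± 0.186 CPM in WT, Ter119pos against Ter119neg (SD, n = 2 each). Between genotypes Myc rose by 0.44 in Ter119pos KO cells (adjusted p = 0.00843) and did not pass in Ter119neg (0.12) or LK cells (0.099). Mxd3 was lower in KO in all 3 populations, by 1.50, 0.74 and 2.15 in Ter119pos, Ter119neg and LK cells (adjusted p of 4.04e-06, 0.0347 and 0.0312), and Mxd4 rose by 2.85 in Ter119pos KO cells (adjusted p = 5.71e-07). Mxi1, another gene of this list, fell by 0.95 in Ter119pos KO cells (edgeR adjusted p = 7.17e-05). A link between this list and the member values was not tested.

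Between KO and WT the share of further pathway genes called was mostly near or below that of all genes. In Ter119pos cells 8 of 18 further Pol I factors rose and 4 fell, 16 of 43 small subunit factors rose and 6 fell, 17 of 49 large subunit factors rose and 9 fell, and 8 of 23 exosome and snoRNP assembly genes rose and 3 fell, or 66.7%, 51.2%, 53.1% and 47.8% called against 54.2% of all genes. Polr2k and Polr2l, short subunits common to all 3 nuclear polymerases, rose by 1.61 and 1.50, and Exosc5, an exosome subunit, by 1.80 (edgeR adjusted p of 4.18e-06, 5.13e-06 and 4.3e-07). Ttf1, which ends Pol I transcription, and Baz2a, a silencing factor of rRNA genes, fell by 1.44 and 1.16 (adjusted p of 5.27e-06 and 1.27e-05). In LK cells none of these 4 lists had a called gene by edgeR without the block. At an unadjusted p under 0.05 they held 0, 0, 8 and 2 of their 18, 43, 49 and 23 genes, against 2404 of all 13771 tested. With the block 1, 8, 13 and 2 rose and 1, 1, 0 and 1 fell, or 11.1%, 20.9%, 26.5% and 13.0% called against 22.7% of all genes.

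Small nucleolar RNA genes, a feature of gene structure that the list did not use, lay inside several members. In the GENCODE M21 annotation, 8 of 49 members (16.3%) carried a small nucleolar RNA gene inside them on the same strand, against 237 of 13227 tested protein-coding genes (1.79%). They were Ncl, Nop56, Nop58, Dkc1, Wdr43, Taf1d, Gnl3 and Tsr1, with 8 such genes inside Taf1d, 5 inside Nop56 and 4 inside Nop58. Exons of 20 members overlapped a gene on the opposite strand, among them Nop56 (with Idh3b), Dkc1 (with Mpp1), Nhp2 (with Rmnd5b), Rrp9 (with Parp3), Bop1 (with Mroh1) and Eif6. The libraries were stranded per the labels, while the strand setting of the counting is not given in the sources used here, so reads of such pairs may not be separable.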

How the data were processed

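The values are RSEM expected counts per gene, as deposited by the authors in 1 table for LK and 1 for fetal libraries. Per the submitters' processing notes, reads were aligned to GRCm38 (mm10) with STAR 2.5.3 and quantified with RSEM, whose version is not given in the sources used here, nor the annotation. Per the labels, LK RNA came from a column kit and fetal RNA from Trizol; rRNA reduction is named for fetal libraries.

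Members and lists were chosen with earlier results of these data known. By the rule for named genes, values in every sample are given for the Pol I members, Ncl, Npm1, Fbl and Dkc1, and per comparison and direction the 4 processing members with the smallest p; other members are given beside them by role. Counts were rounded and tested in R 4.3.3 with edgeR 4.0.16 (TMM, filterByExpr, quasi-likelihood F test), with the 6 LK libraries in 1 fit (13771 genes) and the 8 fetal libraries in another (15566 genes). Adjusted p is by the Benjamini-Hochberg method over all genes tested, called under 0.05. An SE is the log2 fold change divided by the root of F. No column of values was left unassigned. Transcript length was known for 99.5% of genes tested, and 45143 of 45706 genes had a GENCODE M21 identifier.

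LK libraries of the same letter deviated together from their group means (r of 0.604 to 0.73), a pairing read from the data, since no label says what a letter shares. Per the labels, both fractions of mice 1, 2 and 4 were sequenced, while the WT libraries A came from different mice (5 and 3), so 3 of the 4 fraction pairs shared a mouse. Alternatives were RLE scaling, scaling without globin, rRNA and mitochondrial genes, no filter, DESeq2 1.42.0, limma-voom 3.58.1 with a mouse block, fits of 1 fraction, replicate blocks and each library left out. Added after seeing the data were removal of the length trend in fetal comparisons and leaving out both LK libraries of letter B or C. The fits were tested on simulated data with known changes. In these data the LK fit recovered far fewer of the smaller changes than the fetal fit did.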

Additional observations from a re-analysis of the deposited data

Results flagged for a closer look

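The difference between the KO effect in Ter119pos and that in Ter119neg cells passed the edgeR test for 10 members, all positive on the log2 scale. That was 20.4% of members, against 41.7% of all genes (19.3% higher, 22.4% lower). Among Pol I genes the difference was 1.16 for Polr1c. Among snoRNP proteins it was 1.62 for Nhp2, 1.55 for Nop10 and 1.07 for Rrp9. For large subunit factors it was 1.04 for Eif6, 1.07 for Bop1 and 0.69 for Nop16. For small subunit factors it was 0.88 for Noc4l and 0.55 for Emg1, and for the organiser Mybbp1a 0.70. The libraries behind these values are given above.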

How the results depend on the processing

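No member value changed sign together with a call under any setting run. Of the calls made, 39 of 40 in the KO fraction comparison, 45 of 46 in the WT fraction comparison, 14 of 26 in Ter119pos, 7 of 10 for the difference of effects and 2 of 7 in Ter119neg held under every alternative. In LK cells 0 members were higher, against 3 by DESeq2, 15 with the replicate block, 1 with the length trend removed and 23 with that trend removed and the replicate block. Among all 13771 genes (13716 by DESeq2) 159 were higher and 91 lower in the main fit. The same counts were 539 and 535 by DESeq2 and 1363 and 1766 with the block. They were 274 and 200 with the length trend removed, and 1716 and 2031 with both. Scaling without globin, rRNA and mitochondrial genes moved the median of all genes in Ter119pos, KO against WT, by 0.12 and left 16 members higher and 7 lower; the Ter119pos fit alone moved it by 0.18 and left 17 higher and 5 lower. Removing the length trend gave 2 members lower for the difference of effects and 4 higher in the KO fraction comparison, and moved the median of all genes in the fraction comparisons by 0.22 (KO) and 0.19 (WT); without the filter that in WT moved by -0.15. The limma-voom mouse block gave 1 member lower for the difference of effects (Noc3l) and called Polr1c lower in the KO fraction comparison.

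In LK cells leaving out a library gave 0 higher and 0 lower, which from a fit with 0 calls says nothing about stability. In Ter119neg 1 to 2 members were higher (1 without KO B, WT A or WT B) and 1 to 4 lower (2 without KO A, 1 without KO B or WT A). In Ter119pos 10 to 18 were higher and 5 to 13 lower (7 without KO B, 5 without WT B). For the difference of effects 7 to 14 were higher and 0 to 2 lower (1 without Ter119pos KO A or KO B, 2 without Ter119pos WT A). In the KO fraction comparison 1 was higher and 38 to 40 lower, and in WT 1 to 2 higher (1 without Ter119neg WT B) and 44 to 46 lower. Where 1 library is left in a group, the fit takes its spread from the other groups. The cause of these moves was not tested. Fetal libraries of the same letter did not deviate together (r of -0.0678 to 0.155), and the replicate block by letter gave 4 higher and 4 lower members in Ter119neg and 15 and 12 in Ter119pos. Depth limits the members with the fewest counts most, such as Gar1 at 1.73 to 3.30 CPM in Ter119pos libraries.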
